A study of Mus musculus with 12 samples.

Results

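The tumour necrosis factor (TNF) superfamily was followed across CD115+ cells from the spleen and blood of mice, through every gene whose symbol starts with Tnfsf (ligands) or Tnfrsf (receptors). Of 52553 features in the count tables, 32 carry such a symbol. All 32 had at least 10 counts in 3 or more of the 12 libraries and were kept, 12 as ligands and 20 as receptors. Donors were male C57BL/6 mice, left intact or sampled 24 h after a 70% liver resection, and the cells were purified with magnetic beads against CD115, the CSF-1 receptor of monocytes and macrophages. The 4 groups were spleen of intact mice, spleen of resected mice, blood of intact mice and blood of resected mice, with 3 libraries in each and the cells of 5 mice pooled in each library. The comparisons ask how resection moved each tissue, how blood and spleen differed in each state, and whether the response differed between the tissues. The controls were intact, with no sham operation among the samples analysed here, so resection and the surgery around it cannot be told apart. Libraries are separate pools, and the spread between them is the spread between pools, not between animals.

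Ligands of this superfamily are mostly trimeric proteins on the cell surface, some of which are shed, and each binds 1 or a few receptors. Receptors with a death domain can start apoptosis, and decoy receptors bind a ligand without signalling. Many receptors, some with a death domain among them, act through TRAF adaptors and activate NF-kappaB. In the immune system the family carries costimulation of T cells, survival of B and plasma cells, and differentiation of osteoclasts and macrophages.

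Libraries held 36990033 to 46401368 estimated counts. The label of the cells was checked on marker lists, each summed per library in CPM after TMM scaling (counts relative to library size, the level used throughout). Csf1r, which encodes CD115, was read at 209 to 1192 CPM, and the list of 8 monocyte markers summed to 1040 to 6570 CPM. Other lineages were present too. The B-cell list summed to 5140 to 5880 CPM in intact spleen and 579 to 2680 CPM in intact blood, and haemoglobin genes took 0.0814 to 3.47% of counts in spleen and 13.2 to 34.2% in blood. Replicate 3 of intact blood stood apart, with a mean correlation of 0.885 with its own group against 0.915 to 0.948 elsewhere. Its T-cell list summed to 2510 CPM against 866 and 891 CPM, and its monocyte list to 1040 CPM against 2350 and 1840 CPM. The T-cell markers did not move together in that library. Lck was at 1202 CPM against 237.7 and 266.4 CPM, and Cd3d, Cd3e, Cd3g, Cd4 and Lat were also highest there. Cd8a (12.9 against 70.5 and 65.3 CPM) and Cd5 (11.4 against 64.0 and 54.4 CPM) were lowest. Only Klra8 of the NK-cell list was at 0 through a whole group, resected blood. In these bulk samples, fewer cells of a type and less RNA per cell cannot be told apart.

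The effect of resection was tested first in blood. A gene was called when its adjusted p (quasi-likelihood test of edgeR, Benjamini-Hochberg over all 20135 features tested) was under 0.05 and the log2 fold change was beyond 1 in either direction. By this rule 13 of the 31 members tested were called in blood, 8 higher and 5 lower, while 13.9% of all features were called, 7.8% higher and 6.11% lower. Ligands gave 7 of these calls (5 higher, 2 lower of 12) and receptors 6 (3 higher, 3 lower of 19). The median log2 fold change was 0.73 over the ligands and 0.14 over the receptors, against -0.10 over all features. Libraries of the 2 groups did not overlap for 16 of the 31 members (11 higher, 5 lower), where 38.4% of all features did not overlap (19.4% higher, 19% lower). One member, Tnfrsf11b, had too few counts to be tested.

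Tnfsf9 encodes the ligand of CD137, a costimulatory receptor of T cells. Intact blood held it at 1.10, 1.59 and 1.18 CPM and resected blood at 121.5, 175.8 and 89.3 CPM. All 3 resected libraries lay far above all 3 intact libraries, and the log2 fold change was 6.64 ± 0.61 (SE, adjusted p = 0.000450). Reads of this gene were deposited under its symbol and under 1 further transcript entry, which were summed.

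Tnfsf14 encodes LIGHT, which binds the herpesvirus entry mediator and the lymphotoxin-beta receptor. It was read at 4.79, 7.27 and 3.67 CPM in intact and 29.0, 33.4 and 49.1 CPM in resected blood, a log2 fold change of 2.83 ± 0.49 (adjusted p = 0.00414). Tnfsf13 encodes APRIL, a survival factor of plasma cells, and went from 15.9, 10.8 and 7.54 CPM to 46.1, 44.8 and 31.2 CPM (log2 fold change 1.84 ± 0.31, adjusted p = 0.00377). For both genes the 2 groups stood clear of each other. Tnfsf13 overlaps Tnfsf12 and the readthrough gene Tnfsfm13 (Tnfsf12-Tnfsf13), so the split of reads among the 3 is uncertain.

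Tnfsf4, the ligand of the T-cell receptor OX40, was low throughout, at 0.138, 0.206 and 0.415 CPM in intact and 0.855, 0.849 and 1.52 CPM in resected blood. The groups did not overlap and the log2 fold change was 2.07 ± 0.51 (adjusted p = 0.0181). Tnfsf15, the ligand of death receptor DR3, held only 1, 1 and 3 counts in the intact libraries and 11, 36 and 110 counts in the resected ones. The ratio of the summed counts per library size was 38.9 (95% exact binomial interval 16.3 to 121, counting error only), with an adjusted p of 0.00433. Its 3 resected libraries ranged from 0.336 to 3.10 CPM, so the size of this change is loosely fixed.

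**Figure D1:**
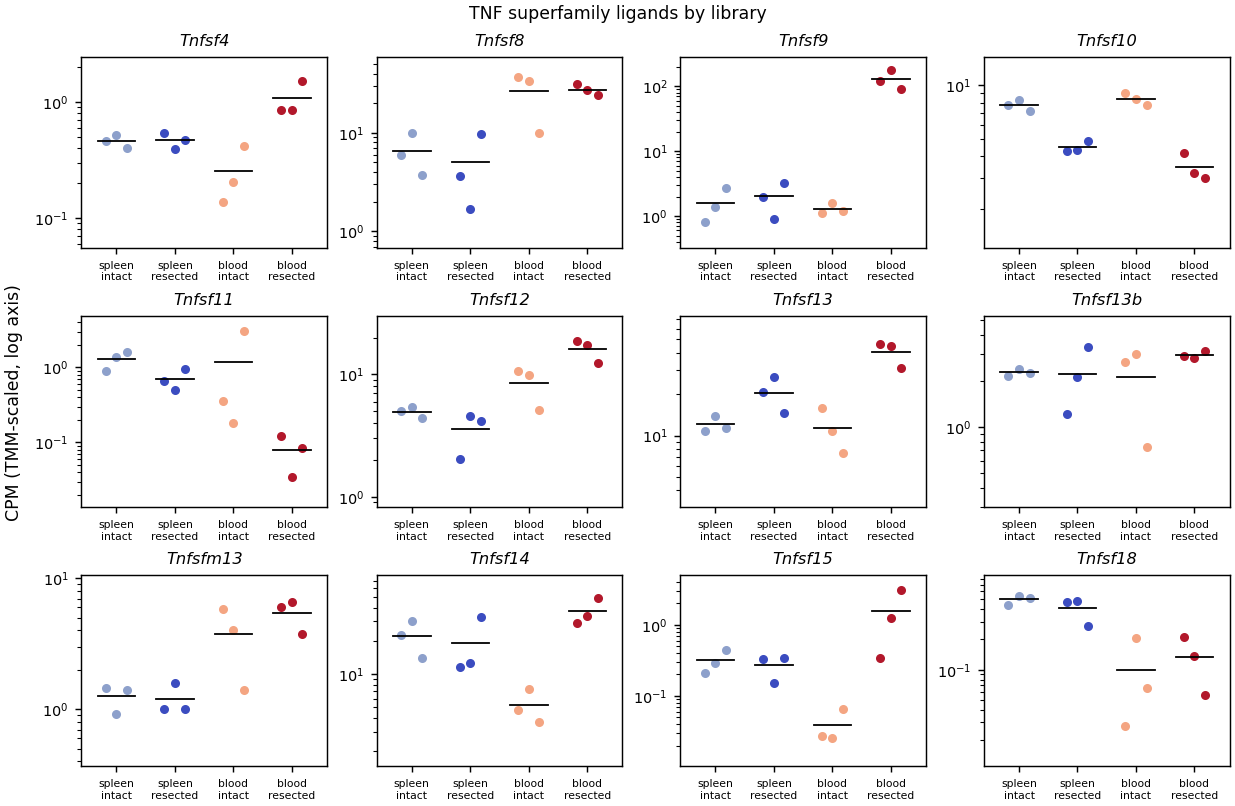
Level of each of the 12 ligands (panels) in CPM on a log axis for the 3 libraries (points) of each group, with the group mean as a bar. In the Tnfsf9 panel the resected blood libraries sit at 89.3 to 175.8 CPM and the other 9 libraries at or below 3.22 CPM.

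RefSeq promoter windows of GRCm38.p6, a build other than the GRCm39 named for these data, were matched for 25 of the 32 members (29 windows, each from 250 bases before to 50 bases after the annotated start). They were searched on both strands for the AP-1 motif TGANTCA, which reads the same on both strands, and for the kappaB consensus. The kappaB consensus was in 3 of the 29 windows (10.3%) and in 8.46% of all 32851 windows, and the AP-1 motif in 6 (20.7%) against 7.81%. Those 6 windows belong to 5 members, as overlapping windows of Tnfsf13b hold the same AP-1 site. Of the 6 members called higher in blood that have a window, 0 held kappaB and 2 held AP-1, namely Tnfsf14 and Tnfsf13. Tnfsf9 and Tnfsf4, also called higher, had no window and were not searched. Of the 5 called lower, Tnfrsf8 held both. These 3 windows are shown because their genes were called in blood and hold a match, with matches in capitals.
Tnfsf14 (chr17:57194132-57194431, minus strand, AP-1 motif starting 160 bases before the start): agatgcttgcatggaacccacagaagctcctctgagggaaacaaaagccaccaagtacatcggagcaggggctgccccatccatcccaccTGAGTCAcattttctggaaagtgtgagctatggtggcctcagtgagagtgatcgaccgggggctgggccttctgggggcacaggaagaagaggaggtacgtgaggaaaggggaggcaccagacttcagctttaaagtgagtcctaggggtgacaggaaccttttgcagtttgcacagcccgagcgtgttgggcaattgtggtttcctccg
Tnfsf13 (chr11:69685505-69685804, minus strand, AP-1 motif starting 133 bases before the start): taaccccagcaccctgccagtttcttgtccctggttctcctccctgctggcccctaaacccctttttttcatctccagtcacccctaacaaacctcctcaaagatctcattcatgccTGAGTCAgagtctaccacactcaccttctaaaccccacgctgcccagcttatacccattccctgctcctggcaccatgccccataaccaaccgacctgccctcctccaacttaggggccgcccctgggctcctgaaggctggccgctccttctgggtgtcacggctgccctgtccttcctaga
Tnfrsf8 (chr4:145315115-145315414, minus strand, 2 overlapping kappaB matches starting 168 and 167 bases before the start, then AP-1 at 132): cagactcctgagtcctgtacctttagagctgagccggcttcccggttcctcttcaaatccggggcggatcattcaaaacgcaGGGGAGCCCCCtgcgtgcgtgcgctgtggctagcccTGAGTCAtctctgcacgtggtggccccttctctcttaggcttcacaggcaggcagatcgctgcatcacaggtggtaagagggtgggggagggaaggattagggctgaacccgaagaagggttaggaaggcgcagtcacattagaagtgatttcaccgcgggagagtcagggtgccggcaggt
A match describes letters in the window, not binding.

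Among the ligands, 2 fell in blood. Tnfsf10 encodes TRAIL, a ligand of death receptors, and was read at 9.03, 8.43 and 7.73 CPM in intact and 4.15, 3.19 and 3.01 CPM in resected blood. The groups did not overlap and the log2 fold change was -1.28 ± 0.21 (adjusted p = 0.00341). Tnfsf11 encodes RANKL, the ligand that drives osteoclasts, and had 0.358, 0.180 and 3.01 CPM in intact and 0.122, 0.0340 and 0.0844 CPM in resected blood. Its fitted log2 fold change was -3.83 ± 1.03 (adjusted p = 0.0262), but replicate 3 of intact blood, the library with the largest T-cell sum, held most of the signal. Without that library the log2 fold change was -1.71 and the call was lost (adjusted p = 0.0748).

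The other 5 ligands did not pass. Tnfsf12, which encodes TWEAK, was at 10.7, 9.82 and 5.16 CPM in intact and 18.7, 17.5 and 12.5 CPM in resected blood, without overlap but at a log2 difference of 0.93 (adjusted p = 0.0888). Tnfsfm13, Tnfsf13b (BAFF, a survival factor of B cells), Tnfsf18 and Tnfsf8 (the CD30 ligand) differed by 0.03 to 0.54 on the log2 scale, with overlapping libraries. Tnfsf18 was near the floor in blood, at 0.0275 to 0.214 CPM, where 3 counts were worth 0.0626 to 0.102 CPM.

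Among the receptors, Tnfrsf11a, Tnfrsf1a and Tnfrsf23 rose in blood. Tnfrsf11a encodes RANK, the receptor of RANKL, and was read at 7.10, 5.24 and 5.02 CPM in intact and 14.7, 17.5 and 22.0 CPM in resected blood (log2 fold change 1.64 ± 0.22, adjusted p = 0.00151). Tnfrsf1a encodes the death-domain receptor of TNF and had 73.0, 66.8 and 30.4 CPM in intact and 123.0, 138.7 and 168.8 CPM in resected blood (1.34 ± 0.34, adjusted p = 0.0215). The 2 groups of libraries did not overlap for either gene.

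Tnfrsf23, a decoy receptor of TRAIL, had 3.08, 2.90 and 1.62 CPM in intact and 8.27, 11.4 and 29.2 CPM in resected blood (2.69 ± 0.71, adjusted p = 0.0245). Its sequence is close to that of Tnfrsf22 and Tnfrsf26, so the reads of the 3 may be shared out in error. Tnfrsf1b, the second TNF receptor, had 252.1, 225.4 and 77.2 CPM in intact and 288.4, 368.2 and 797.7 CPM in resected blood. These groups did not overlap either, yet the log2 difference of 1.39 did not pass (adjusted p = 0.0699).

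Tnfrsf8, Tnfrsf14 and Tnfrsf19 fell in blood. Tnfrsf8 encodes CD30, a receptor of activated lymphocytes, and went from 27.5, 65.4 and 165.7 CPM to 24.5, 16.8 and 13.0 CPM (-2.26 ± 0.60, adjusted p = 0.0258). Its intact libraries spanned a wide range, with the highest level in replicate 3. Tnfrsf14 encodes the herpesvirus entry mediator, a receptor of LIGHT, and went from 95.1, 81.6 and 39.3 CPM to 32.1, 33.3 and 28.8 CPM (-1.20 ± 0.28, adjusted p = 0.0162). Tnfrsf19 encodes TROY and went from 4.68, 7.502 and 5.37 CPM to 3.72, 2.41 and 2.08 CPM (-1.09 ± 0.33, adjusted p = 0.0416). For these 3 receptors every resected library lay below every intact one. The remaining 12 receptors tested, apart from Tnfrsf1b, differed by -0.90 (Tnfrsf25) to 0.87 (Tnfrsf12a) on the log2 scale and did not pass.

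**Figure D2:**
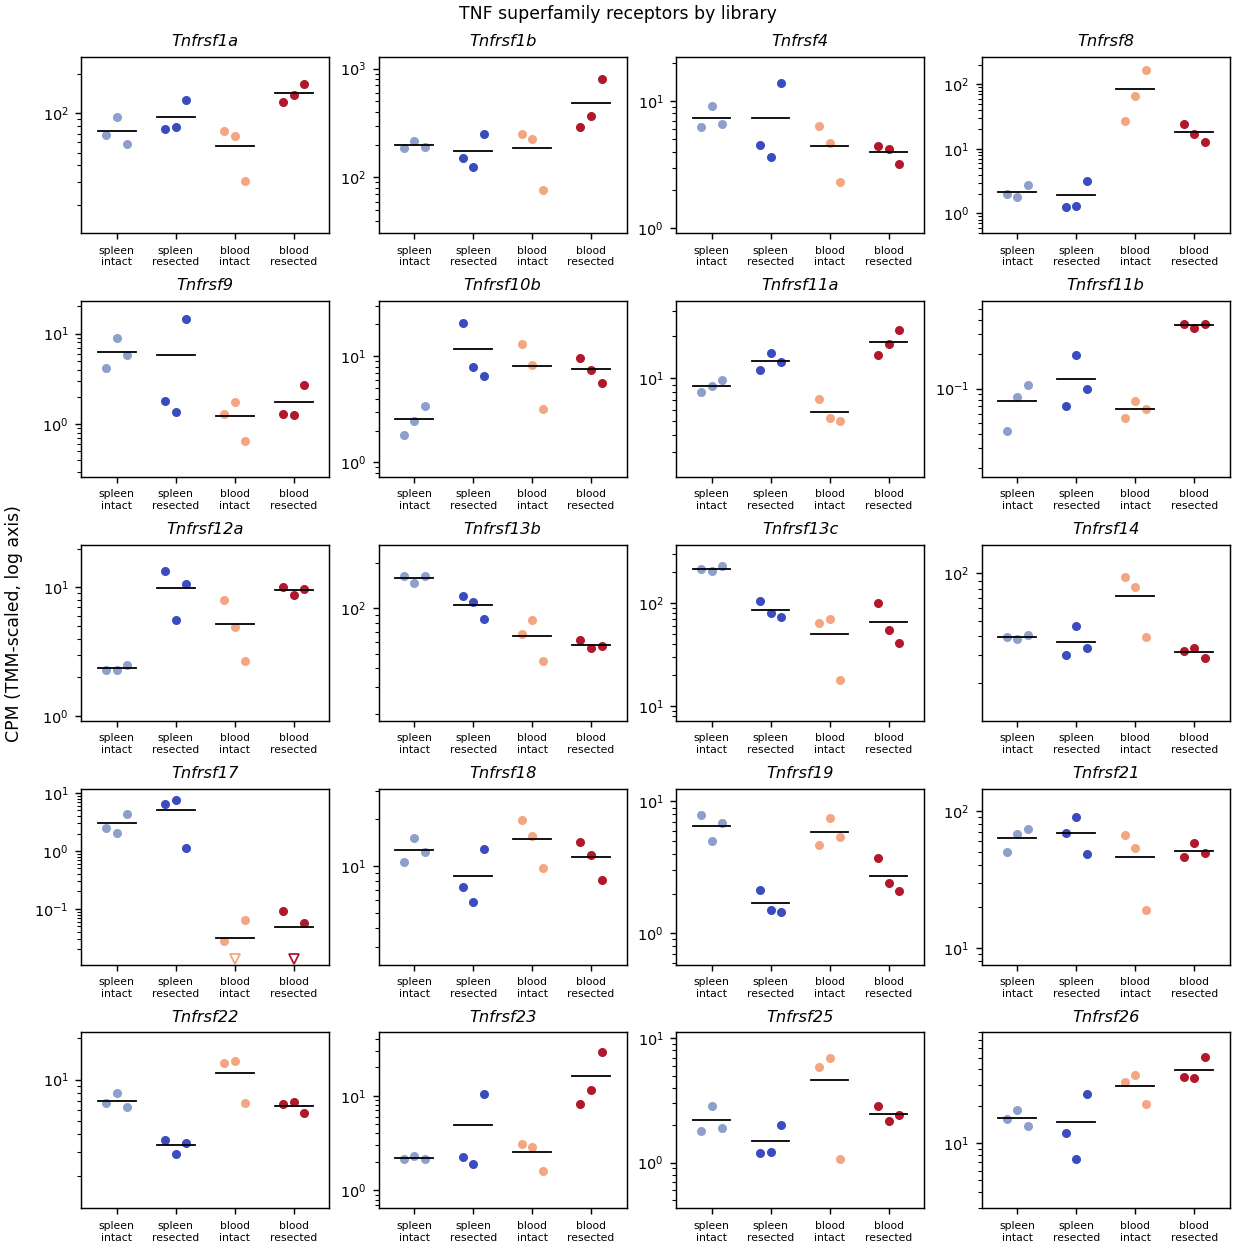
Level of each of the 20 receptors (panels) in CPM on a log axis for the 3 libraries (points) of each group, with the group mean as a bar and an open triangle for a library at 0. Tnfrsf8 was highest in the 3 intact blood libraries (27.5 to 165.7 CPM), and Tnfrsf17 was at or below 0.0916 CPM in all 6 blood libraries.

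The blood calls of Tnfsf9, Tnfsf10, Tnfsf13, Tnfsf14, Tnfsf15 and Tnfrsf11a were kept in each of the 12 fits that left out 1 library. Over those fits the number of members called ran from 6 to 14, with 8 without resected replicate 2 and 6 without resected replicate 3. Of all features, 1770 of 21157 and 1633 of 21059 were called without these libraries in that order, against 2801 of 20135 in the full fit. Without resected replicate 3, which had the largest neutrophil sum, 7 calls were lost. They were Tnfsf4 (log2 difference 1.79, adjusted p = 0.0574), Tnfsf11 (-3.79, adjusted p = 0.0868), Tnfrsf1a (1.22, adjusted p = 0.0828), Tnfrsf8 (-2.00, adjusted p = 0.0938), Tnfrsf14 (-1.13, adjusted p = 0.0788), Tnfrsf19 (-0.91, adjusted p = 0.141) and Tnfrsf23 (1.98, adjusted p = 0.0960). Without resected replicate 2, adjusted p was 0.0931 for Tnfsf11 (-3.43), 0.0636 for Tnfrsf1a (1.35), 0.0840 for Tnfrsf8 (-2.16), 0.0583 for Tnfrsf14 (-1.25) and 0.134 for Tnfrsf19 (-1.001). Without resected replicate 1, it was 0.0560 for Tnfsf11 (-4.17) and 0.0562 for Tnfrsf14 (-1.21). Without intact replicate 3, it was 0.0748 for Tnfsf11 (-1.71), 0.0712 for Tnfrsf8 (-1.37) and 0.0643 for Tnfrsf23 (2.44). Without intact replicate 2, it was 0.0511 for Tnfsf4 (1.99), 0.0584 for Tnfrsf14 (-1.10), 0.137 for Tnfrsf19 (-0.85) and 0.0598 for Tnfrsf23 (2.80). Without intact replicate 1, it was 0.0650 for Tnfrsf14 (-0.92), 0.0547 for Tnfrsf19 (-1.20) and 0.0518 for Tnfrsf23 (2.87). The call of Tnfrsf19 also went without any 1 of the intact spleen libraries or resected spleen replicate 2, with adjusted p of 0.0534 to 0.0609.

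Marker lists of other cells moved with the same comparison. All 9 neutrophil markers were called higher in resected blood, and their sum went from 96.7 to 270 CPM up to 3270 to 16800 CPM. The 5 red pulp macrophage markers were all called higher (55.6 to 79.8 against 818 to 1150 CPM), as were 3 of 4 peritoneal macrophage markers (201 to 595 against 1750 to 1890 CPM). Most of the peritoneal sum in resected blood was Prg4 (1723, 1612 and 1655 CPM). Timd4 was at 40.7, 19.4 and 24.9 CPM in intact and 38.4, 43.5 and 25.8 CPM in resected blood. Most of the red pulp sum in resected blood was Hmox1 (564.9 to 801.4 CPM) and Cd163 (220.4 to 273.6 CPM). There Spic was at 1.98 to 6.42 CPM and Vcam1 at 1.37 to 4.79 CPM. In resected spleen they were at 75.0 to 126.2 and 377.4 to 1572 CPM. Of 8 T-cell markers, 6 were called lower (866 to 2510 against 168 to 330 CPM), and 0 of 9 B-cell markers were called. The NK-cell list fell from 127 to 242 CPM to 21.2 to 59.5 CPM (0 of 4 called). Of 5 plasma cell markers, 3 were called higher (148 to 181 against 248 to 331 CPM). The platelet list rose from 79.1 to 291 CPM to 791 to 881 CPM (1 of 5 called), with Pf4 at 537.4 to 642.7 CPM of it. The monocyte list summed to 1040 to 2350 CPM in intact and 3970 to 6570 CPM in resected blood, with 3 of 8 called higher and 1 lower. Most of the resected sum was Itgam, at 475.4 to 796.7 CPM in intact and 2520 to 5038 CPM in resected blood. Ly6c2 (mean 53.5 against 35.9 CPM) and Cx3cr1 (41.0 against 8.90 CPM) were lower after resection, and the other markers of the list had higher means. The part of these cells in the changes of the ligands and receptors was not tested.

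Members of the superfamily with other symbols were tested in blood as well, where 13.9% of all features were called. Of 6 ligands tested 1 was called higher, 1 lower and 4 not, and of 6 receptors 2 were called higher, 1 lower and 3 not. Tnf, the founding ligand, had 11.45, 14.98 and 9.26 CPM in intact and 620.8, 1198 and 728.4 CPM in resected blood (6.16 ± 0.73, adjusted p = 0.00111). Every resected library exceeded every intact library many times over. Fas, a death receptor, was called at 2.50 ± 0.56 (adjusted p = 0.0125) and Ltbr, the lymphotoxin-beta receptor, at 1.84 ± 0.37 (adjusted p = 0.00847). Cd27, a lymphocyte receptor, fell by 3.09 (SE 0.47, adjusted p = 0.00278) and Cd40lg, the CD40 ligand of activated T cells, by 2.91 (SE 0.71, adjusted p = 0.0175) on the log2 scale. The call of Cd40lg was lost without resected replicate 3 (adjusted p = 0.0723), among others.

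Of 22 adaptors and regulators that act below the receptors, 3 were called higher in blood and 0 lower, a share close to the 13.9% of all features. Nfkbia, the inhibitor of NF-kappaB that NF-kappaB itself induces, was at 339.8, 329.8 and 253.3 CPM in intact and 1516, 2532 and 2115 CPM in resected blood (2.74 ± 0.33, adjusted p = 0.00111). Cflar, which encodes the caspase-8 inhibitor c-FLIP, was at 95.6, 103.8 and 60.9 CPM and 304.1, 523.6 and 663.4 CPM (2.52 ± 0.31, adjusted p = 0.00123). Both genes stood without overlap between the groups. Relb, an NF-kappaB subunit, was called at 1.62 ± 0.40 (adjusted p = 0.0196) and not without resected replicate 3 (1.24, adjusted p = 0.0845). The other 19 were not called, and the median over the list was 0.21.

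In spleen, resection gave 2 calls among the 31 members, 1 higher and 1 lower and both receptors, while 1.38% of all features were called. At an unadjusted p under 0.05 there were 9 members, against 20.8% of all features, and 9 had groups of libraries that did not overlap (4 higher, 5 lower), against 35.1% of all features (17.4% higher, 17.7% lower). None of the 12 ligands was called by edgeR, 2 had an unadjusted p under 0.05 and DESeq2 called 0 of them. Tnfrsf12a encodes Fn14, the receptor of TWEAK, and was at 2.29, 2.30 and 2.47 CPM in intact and 13.4, 5.59 and 10.7 CPM in resected spleen (2.07 ± 0.41, adjusted p = 0.0402). Tnfrsf19 had 7.83, 5.03 and 6.81 CPM in intact and 2.15, 1.51 and 1.45 CPM in resected spleen (-1.94 ± 0.34, adjusted p = 0.0300). The groups did not overlap for either receptor, and Tnfrsf19 is the one member called in both tissues.

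Both spleen calls stood near the threshold. The number of members called was 0 without any 1 of the 3 intact spleen libraries, without resected spleen replicate 3 or without resected blood replicate 2. It was 1 without resected spleen replicates 1 or 2, resected blood replicates 1 or 3, or intact blood replicate 2, and 5 without intact blood replicate 3. Of all features, 278 of 20135 were called in the full fit. Of 21021 to 21157 features, 1, 3 and 157 were called without intact spleen replicates 1, 2 and 3. Without resected spleen replicate 3 there were 25, and without resected blood replicate 2 there were 46. The fits with 1 member called gave 90 to 221, and that without intact blood replicate 3 gave 1028. Over the fits that lost its call, Tnfrsf12a kept a log2 difference of 1.79 to 2.10, with adjusted p from 0.0568 (without resected blood replicate 3) to 0.192 (without intact spleen replicate 1). Tnfrsf19 kept -2.10 to -1.80, with adjusted p from 0.0566 (without resected blood replicate 2) to 0.145 (without intact spleen replicate 1).

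Several other members stood without overlap in spleen and did not pass. Tnfrsf22, a decoy receptor of TRAIL, was at 6.76, 8.02 and 6.30 CPM in intact and 3.62, 2.90 and 3.47 CPM in resected spleen (log2 difference -1.08, adjusted p = 0.0758). Tnfrsf10b, the TRAIL death receptor of the mouse, was at 1.83, 2.44 and 3.43 CPM in intact and 20.8, 7.88 and 6.59 CPM in resected spleen (2.19, adjusted p = 0.0793). DESeq2 and a minimum of 10 counts in every library called both. Tnfrsf13c, the BAFF receptor of B cells, was at 214.9, 201.9 and 229.0 CPM and 104.8, 80.4 and 72.2 CPM (-1.33, adjusted p = 0.145), a difference that DESeq2 called. Tnfsf10 was at 7.72, 8.24 and 7.17 CPM and 4.27, 4.32 and 4.87 CPM (-0.78, adjusted p = 0.0793). In all 4 the groups stood apart. The B-cell list went from 5140 to 5880 CPM in intact spleen to 1310 to 4410 CPM in resected spleen, with 0 of 9 markers called, and the neutrophil list from 765 to 1570 CPM to 4780 to 13100 CPM, with 2 of 9 called. The T-cell list went from 202 to 391 CPM to 90.2 to 132 CPM (0 of 8 called). The NK-cell list went from 45.1 to 101 CPM to 2.63 to 17 CPM (1 of 4 called). The erythroid list went from 665 to 3020 CPM to 7160 to 31400 CPM (0 of 6 called). Their part in these differences was not tested. Of the related lists, Tnf (9.83, 12.2 and 18.5 CPM against 80.6, 39.7 and 266.2 CPM; 3.25 ± 0.64, adjusted p = 0.0397) and Nfkbia (2.01 ± 0.32, adjusted p = 0.0253) were called higher. Of the 12 fits that left out 1 library, 10 lost the call of Tnf and 4 that of Nfkbia.

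**Figure D3:**
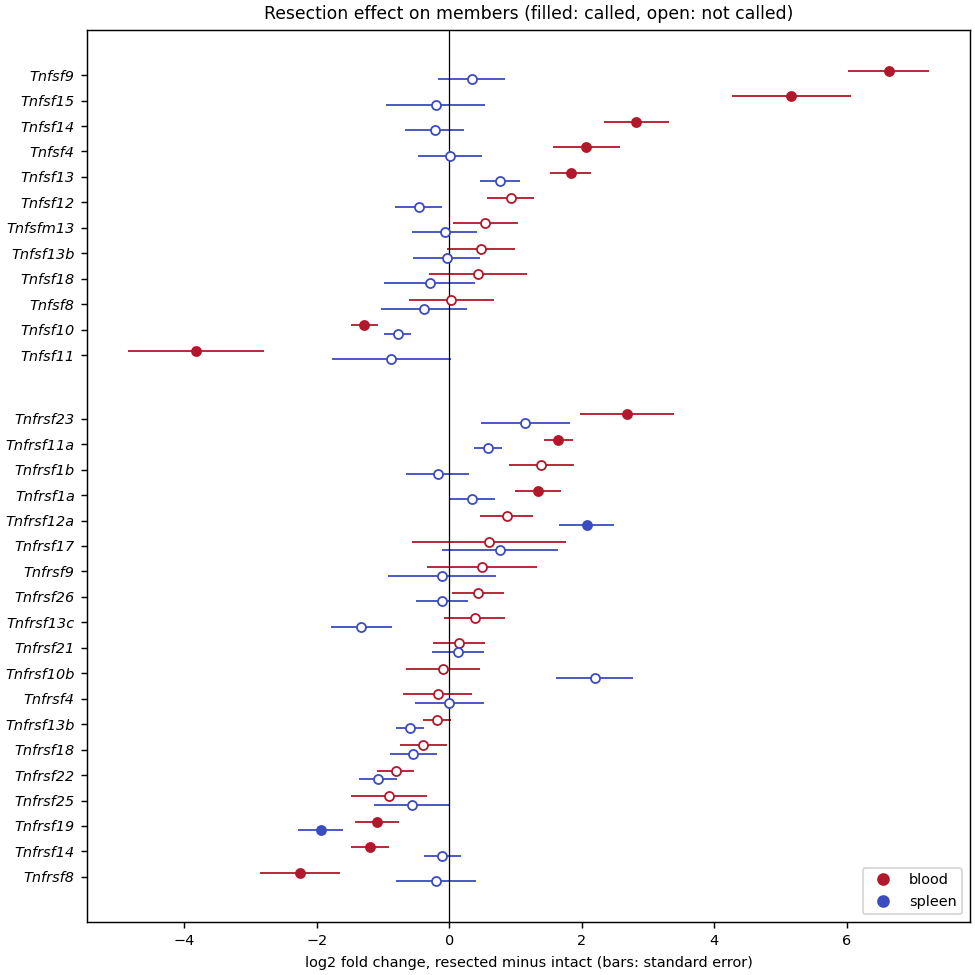
Log2 fold change of resected over intact mice for the 31 members tested (ligands above, receptors below, each ordered by the blood value) with the standard error as bars, in blood and spleen, filled where called. Tnfsf9 lies at 6.64 in blood and 0.34 in spleen. The fitted value of Tnfsf15 in blood rests on 5 counts in intact blood.

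The difference between the 2 resection effects was tested as an interaction, blood minus spleen. Tnfsf9 was the only member called (6.30 ± 0.75, adjusted p = 0.0227), while 0.283% of all features were called (0.219% higher, 0.0646% lower). In spleen it was at 0.800, 1.36 and 2.66 CPM in intact and 1.96, 0.917 and 3.22 CPM in resected mice, with overlapping libraries (log2 difference 0.34 ± 0.50, adjusted p = 0.761). The interaction lost its call without intact spleen replicate 2 (6.40, adjusted p = 0.0724), resected spleen replicate 1 (6.28, adjusted p = 0.0701), resected blood replicate 2 (6.03, adjusted p = 0.0556) or intact blood replicate 2 (6.52, adjusted p = 0.0502). Tnfsf15 (5.37, adjusted p = 0.0846) and Tnfsf14 (3.05, adjusted p = 0.0876) followed without passing. Tnfsf15 was at 0.153 to 0.447 CPM and Tnfsf14 at 11.5 to 33.2 CPM over the 6 spleen libraries, with no call on resection there. In all, 13 members had an unadjusted p under 0.05 for this difference, where 17.3% of all features did. Among the related lists, Cflar alone was called (2.63 ± 0.43, adjusted p = 0.0437), and it lost that call in 10 of the 12 fits without 1 library.

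In intact mice, 5 members differed between blood and spleen, 1 higher and 4 lower in blood, where 7.35% of all features were called (3.86% higher, 3.49% lower). Libraries did not overlap for 12 members (34.5% of all features), 4 of them higher in blood (13.6%) and 8 lower (20.9%). Tnfrsf8 was the one that was higher, at 27.5 to 165.7 CPM in blood and 2.00, 1.80 and 2.73 CPM in spleen (5.31 ± 0.70, adjusted p = 0.00269). Its ligand Tnfsf8 was at 36.8, 33.6 and 9.98 CPM in blood and 5.93, 9.96 and 3.77 CPM in spleen, a log2 difference of 2.03 that did not pass (adjusted p = 0.0863). So every blood library exceeded every spleen library for both CD30 and its ligand, the latter by a narrow margin in blood replicate 3.

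Tnfsf14 was lower in intact blood (3.67 to 7.27 CPM) than in intact spleen (22.8, 30.2 and 14.0 CPM; -2.09 ± 0.47, adjusted p = 0.0251). The other 3 members that were lower are receptors of BAFF and APRIL. Tnfrsf13c was at 63.1, 69.2 and 17.9 CPM in blood and 201.9 to 229.0 CPM in spleen (-2.10 ± 0.48, adjusted p = 0.0252). Tnfrsf13b, which encodes TACI, was at 67.5, 83.3 and 45.1 CPM and 164.2, 147.8 and 165.1 CPM (-1.29 ± 0.21, adjusted p = 0.00741). This is the sum of 2 deposited entries of Tnfrsf13b. The entry under the symbol alone was not called (-1.78, adjusted p = 0.0937), and that of a non-coding transcript was (-1.04, adjusted p = 0.00731). Tnfrsf17 encodes BCMA, the receptor of plasma cells, and held 1, 0 and 3 counts in blood and 118, 99 and 206 in spleen. Spleen exceeded blood in the summed counts of Tnfrsf17 by a ratio of 89.9 (95% exact binomial interval 34.8 to 331; adjusted p = 0.0109). The B-cell list was also lower in intact blood (579 to 2680 against 5140 to 5880 CPM, 1 of 9 called) and so was the plasma cell list (148 to 181 against 2130 to 2980 CPM, 2 of 5 called), while 6 of 8 T-cell markers were called higher (866 to 2510 against 202 to 391 CPM). Lower in intact blood were also 4 of 5 red pulp macrophage markers (55.6 to 79.8 against 974 to 1570 CPM), 4 of 9 neutrophil markers (96.7 to 270 against 765 to 1570 CPM) and 3 of 6 conventional dendritic cell markers (22.5 to 80.4 against 87.4 to 119 CPM). All 5 platelet markers were called higher (79.1 to 291 against 8 to 17.2 CPM), as were 5 of 6 erythroid and 3 of 4 peritoneal macrophage markers. The part of these cells was not tested.

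Leaving out 1 library gave 3 to 10 calls in the intact comparison. There were 3 without intact spleen replicates 1 or 2, resected blood replicate 2 or intact blood replicate 1, and 10 without intact blood replicate 3. Of all 21021 to 21157 features, 531, 615, 1024, 828 and 1494 were called in that order, against 1480 of 20135 in the full fit. Tnfsf14 lost its call without intact spleen replicate 1 (-1.98, adjusted p = 0.0895) or 2 (-1.71, adjusted p = 0.107), resected blood replicate 2 (-2.02, adjusted p = 0.0511), or intact blood replicate 1 (-1.98, adjusted p = 0.0903) or 3 (-1.79, adjusted p = 0.0730). Tnfrsf13c lost it without any 1 of the intact spleen libraries (-2.04 to -1.96, adjusted p 0.0783 to 0.0870), resected blood replicate 2 (-2.01, adjusted p = 0.0550) or intact blood replicate 1 (-2.23, adjusted p = 0.0670). Tnfrsf13b without intact blood replicate 3 had a log2 difference of -0.97 (adjusted p = 0.00869), under the fold limit. Without that same library, Tnfrsf10b, Tnfrsf12a, Tnfrsf14, Tnfrsf22, Tnfrsf25, Tnfsf8 and Tnfsfm13 were called higher in blood, by 1.05 to 2.53 on the log2 scale.

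**Figure D4:**
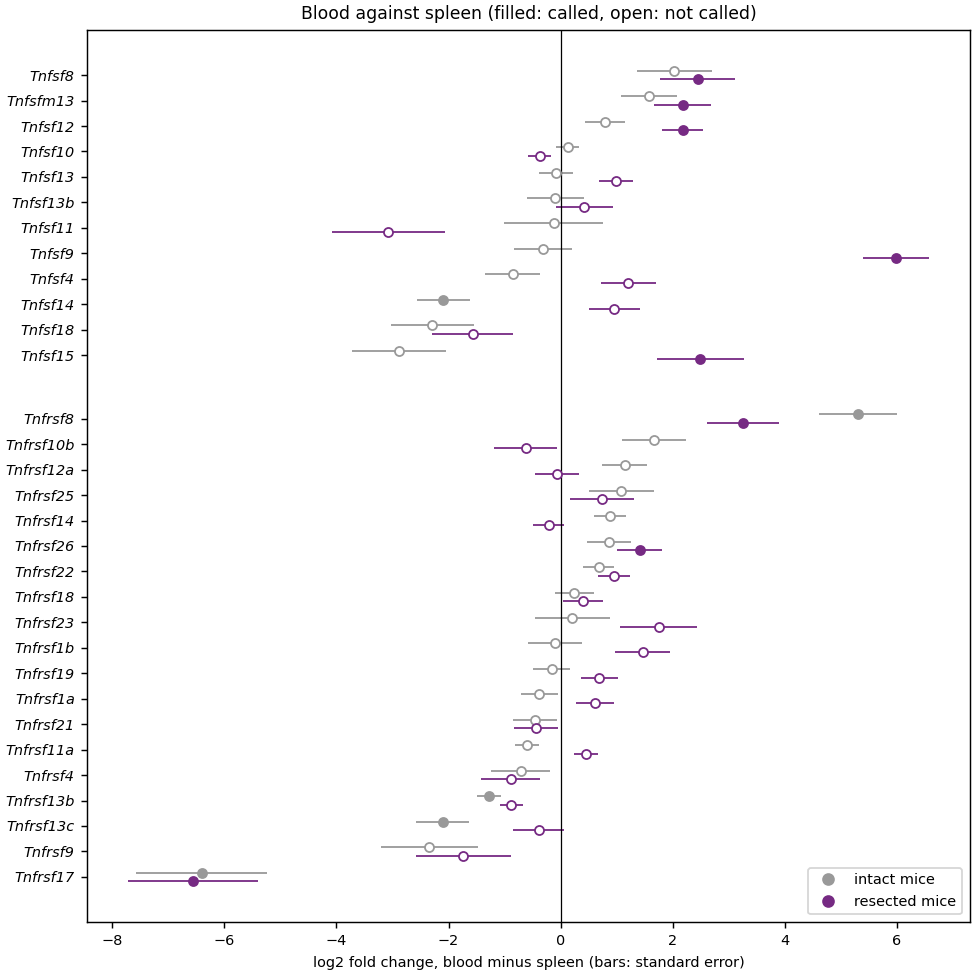
Log2 fold change of blood over spleen for the 31 members tested (ligands above, receptors below, each ordered by the value in intact mice) with the standard error as bars, in intact and resected mice, filled where called. Tnfsf9 lies at -0.31 in intact and 5.99 in resected mice, and the fitted values of Tnfrsf17 rest on 4 and 5 counts in blood.

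In resected mice, 8 members differed between blood and spleen, 7 higher and 1 lower in blood, where 13.1% of all features were called (6.28% higher, 6.86% lower). Libraries did not overlap for 16 members (42.4% of all features), 11 of them higher in blood (17.2%) and 5 lower (25.1%). This comparison shares its libraries with the resection comparisons and is no separate evidence of them. Ligands gave 5 of the calls, all higher in blood. Tnfsf9 was at 89.3 to 175.8 CPM in blood and 0.917 to 3.22 CPM in spleen (5.99 ± 0.59, adjusted p = 0.000475). Tnfsf12 was at 18.7, 17.5 and 12.5 CPM in blood and 2.06, 4.56 and 4.13 CPM in spleen (2.18 ± 0.37, adjusted p = 0.00401). Tnfsfm13, its readthrough gene, was at 6.01, 6.59 and 3.77 CPM and 1.00, 1.59 and 1.01 CPM (2.18 ± 0.51, adjusted p = 0.0165). All 3 were without overlap.

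Tnfsf8 was at 31.0, 27.2 and 24.0 CPM in resected blood and 3.64, 1.68 and 9.78 CPM in resected spleen (2.45 ± 0.67, adjusted p = 0.0316). Tnfsf15 was at 0.336, 1.22 and 3.10 CPM and 0.327, 0.153 and 0.344 CPM, where the lowest blood library lay inside the spleen range (2.49 ± 0.78, adjusted p = 0.0485). Of the receptors, Tnfrsf8 (3.25 ± 0.64, adjusted p = 0.00807) and Tnfrsf26 (1.41 ± 0.40, adjusted p = 0.0349) were higher in blood. Tnfrsf26, a further TRAIL receptor homologue, was at 34.7, 34.2 and 50.04 CPM in blood and 12.1, 7.40 and 25.3 CPM in spleen, without overlap. Tnfrsf17 held 3, 0 and 2 counts in resected blood and 282, 341 and 46 in resected spleen, a ratio of 101 in favour of spleen (95% exact binomial interval 43.1 to 312, adjusted p = 0.00526). As in intact mice, this difference was favoured by the choice of members, since Tnfrsf17 reached the minimum in spleen alone. The adjusted p of Tnfsf13 (0.98, adjusted p = 0.0459), Tnfrsf22 (0.95, adjusted p = 0.0409) and Tnfrsf13b (-0.88, adjusted p = 0.0187) was under the threshold with a log2 difference inside the fold limit. Beside these, 4 of 4 peritoneal macrophage markers were called higher in resected blood (1750 to 1890 against 15.8 to 30.1 CPM), 4 of 8 T-cell markers higher (168 to 330 against 90.2 to 132 CPM) and 5 of 5 platelet markers higher (791 to 881 against 10.3 to 27.3 CPM). Called lower were 3 of 5 plasma cell markers (248 to 331 against 3920 to 4610 CPM), 3 of 5 red pulp macrophage markers (818 to 1150 against 2070 to 3550 CPM) and 2 of 9 neutrophil markers (3270 to 16800 against 4780 to 13100 CPM). So were 2 of 9 B-cell markers (768 to 1880 against 1310 to 4410 CPM) and 2 of 6 conventional dendritic cell markers (22.6 to 38 against 39.4 to 66.3 CPM). Of 6 erythroid markers 5 were called higher, and of 8 monocyte markers 2 higher and 1 lower. The part of these cells was not tested.

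The number of these calls was 4 without resected spleen replicate 1 or resected blood replicate 2, 5 without resected blood replicate 3 and 13 without intact blood replicate 3. Of all 21021 to 21157 features, 1579, 1550, 1609 and 3623 were called in that order, against 2646 of 20135 in the full fit. The calls of Tnfsf9, Tnfsf12, Tnfrsf8 and Tnfrsf17 were kept without any 1 library. Tnfsfm13 lost its call without resected spleen replicate 1 (2.16, adjusted p = 0.0579) or resected blood replicate 2 (2.11, adjusted p = 0.0551). Tnfsf8 lost it without resected spleen replicate 1 (2.36, adjusted p = 0.103) or 2 (2.13, adjusted p = 0.0826), or resected blood replicate 1 (2.45, adjusted p = 0.0695), 2 (2.55, adjusted p = 0.0703) or 3 (2.64, adjusted p = 0.0607). Tnfrsf26 lost it without the same 5 libraries (1.19 to 1.598, adjusted p 0.0528 to 0.101). Tnfsf15 lost it in 10 of the 12 fits, with 1.61 (adjusted p = 0.192) without resected blood replicate 3 as the lowest value. Of the related genes, Tnf (2.72), Fas (2.41), Fasl (2.22), Cflar (2.45) and Nfkbia (1.19) were called higher in resected blood than in resected spleen, and Lta (-1.74) lower, as log2 fold changes. Of the 12 fits without 1 library, 9 lost the call of Fasl, 9 that of Lta, 4 that of Nfkbia, 3 that of Fas and 1 that of Tnf, and that of Cflar was kept. In intact mice, Lta (-2.74) was lower and Tnfaip3 (1.67) higher in blood, and each lost its call in 3 of the 12 fits.

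The receptors of APRIL and BAFF carried a further limit. Counts of Tnfrsf13b were split in the tables between an entry under the symbol and an entry for a non-coding transcript of the gene, which were summed above. The symbol entry held 22.1 to 51.0% of the counts in spleen and 5.48 to 24.7% in blood. Taken alone, the symbol entry was at 3.80, 3.15 and 3.18 CPM in resected blood and 60.0, 48.5 and 29.6 CPM in resected spleen (-3.77 ± 0.63, adjusted p = 0.00463). The non-coding entry of Tnfrsf13b was at 60.4, 54.4 and 54.7 CPM and 57.6, 59.9 and 52.3 CPM in the same libraries (-0.00, adjusted p = 0.999). On resection in spleen the non-coding entry fell by 1.00 (adjusted p = 0.0294) while the symbol entry differed by 0.15 (adjusted p = 0.922).

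**Figure D5:**
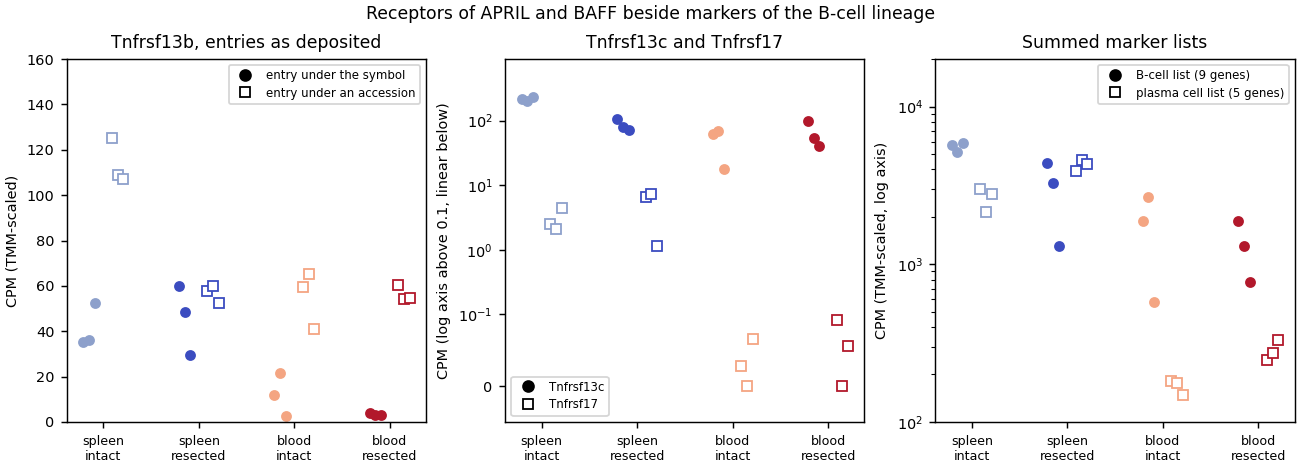
CPM by library (points, 3 per group) of the Tnfrsf13b entries (left, linear axis), of Tnfrsf13c and Tnfrsf17 (middle, log axis above 0.1 and linear below) and of the summed B-cell and plasma cell lists (right, log axis). The symbol entry of Tnfrsf13b lies at 3.15 to 3.80 CPM in resected blood beside a non-coding entry at 54.4 to 60.4 CPM.

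Some ligands can be set beside their receptors. Tnfsf9 was called higher in blood after resection, while its receptor Tnfrsf9 was at 0.655 to 1.77 CPM in intact and 1.26 to 2.70 CPM in resected blood (log2 difference 0.50, adjusted p = 0.714). LIGHT (Tnfsf14) was called higher and its receptor Tnfrsf14 lower, the latter call being lost in 5 of the 12 fits without 1 library. Its other receptor Ltbr was called higher (1.84 ± 0.37, adjusted p = 0.00847), and 0 of the 12 fits lost that call. RANKL (Tnfsf11) was called lower and its receptor Tnfrsf11a higher, with the call of Tnfsf11 lost in 4 of those fits, among them that without intact blood replicate 3 (-1.71, adjusted p = 0.0748). Tnfrsf11b, the decoy receptor of RANKL (osteoprotegerin), held 2 to 13 counts a library, with 12, 10 and 13 in resected and 2, 3 and 3 in intact blood. Resected blood is the only group in which it reached the minimum of 10 counts, so its difference between resected and intact blood was favoured by the choice of members. In a fit with no filter on low counts the log2 difference of Tnfrsf11b was 2.39 ± 0.71 (adjusted p = 0.0555). It was called by DESeq2 (2.46, adjusted p = 0.00921), by edgeR with haemoglobin genes left out (2.38, adjusted p = 0.0217) and in the 6 fits without 1 spleen library (adjusted p 0.0288 to 0.0469).

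The remaining members were called in none of the 5 comparisons by edgeR. They are the ligands Tnfsf13b (0.743 to 3.32 CPM over all 12 libraries) and Tnfsf18 (0.0275 to 0.543 CPM), and the receptors Tnfrsf1b (77.2 to 797.7 CPM), Tnfrsf4 (2.29 to 13.8 CPM), Tnfrsf9 (0.655 to 14.3 CPM), Tnfrsf10b (1.83 to 20.8 CPM), Tnfrsf18 (5.83 to 19.5 CPM), Tnfrsf21 (18.9 to 91.0 CPM), Tnfrsf22 (2.90 to 13.8 CPM) and Tnfrsf25 (1.07 to 6.96 CPM). Tnfrsf4 (OX40) and Tnfrsf18 (GITR) are costimulatory receptors of T cells, Tnfrsf21 is death receptor DR6 and Tnfrsf25 is DR3, the receptor of Tnfsf15. In resected spleen, replicate 3 held Tnfrsf9 at 14.3 CPM and Tnfrsf4 at 13.8 CPM, and the other 2 libraries held them at 1.38 to 1.82 CPM and 3.602 to 4.53 CPM. That library thus sets the mean of both in its group.

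Divided by the exon length of each gene, levels can be set side by side between genes. Only the 32 members were ranked so, without the ligands and receptors of other symbols. Before division by length, Tnf was at 620.8, 1198 and 728.4 CPM in resected blood. Ltb was at 380.5, 396.6 and 409.1 CPM in intact spleen and 193.6, 256.7 and 42.8 CPM in intact blood. In resected blood Tnfsf9 was the most abundant of the 12 Tnfsf ligands, at 99.9 ± 33.9 CPM per kilobase (SD, n = 3). Behind it were Tnfsf13 (24.9 ± 5.04) and Tnfsf14 (20.1 ± 5.71), whose libraries overlapped on this scale. In intact blood Tnfsf8 (7.04 ± 3.85), Tnfsf13 (6.97 ± 2.58) and Tnfsf12 (5.96 ± 2.07) led within their spread of each other, and Tnfsf9 was at 1.00 ± 0.205. In intact spleen Tnfsf14 (12.1 ± 4.40) and Tnfsf13 (7.36 ± 1.03) led, with overlapping libraries. Among receptors, Tnfrsf13c (105 ± 6.62) led in intact spleen, all in CPM per kilobase. Tnfrsf1b (127 ± 71.7) led in resected blood, where its lowest library lay within the range of Tnfrsf1a (66.6 ± 10.8). Tnfrsf14 (55.5 ± 22.4) led in intact blood, within the spread of Tnfrsf1b (48.4 ± 24.7).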

How the data were processed

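RNA of CD115+ cells was sequenced as strand-specific DNBSEQ mRNA libraries per the labels (the study's methods name an Illumina instrument). The submitters' processing notes name STAR and GRCm39; the counting tool and annotation are not given in the sources used here. The deposited files hold estimated counts per symbol or transcript accession (67088 entries in each of 12 tables). Entries with no gene (1.75 to 4.33% of a library) were left out. Of 40274 accessions, 25340 were assigned to a symbol through RefSeq GRCm38.p6 names. Entries were summed per gene (52553 features) and rounded.

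Levels are CPM with TMM scaling (factors 0.661 to 1.26). The test was the robust quasi-likelihood test of edgeR 4.0.16 (R 4.3.3) on all 12 libraries and 4 groups, after filterByExpr (20135 features), with Benjamini-Hochberg adjustment over all features in each of 5 comparisons. Calls needed an adjusted p under 0.05 and a log2 fold change beyond 1. The standard error is the log2 fold change over the root of F. The floor was 3 counts (0.0626 to 0.102 CPM). Intervals cover counting error only. Exon length is the union of GENCODE basic exons.

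Groups came from sample titles. Every member is accounted for, with values in each library for Tnfsf9 and for members called in a comparison; of the lists of related genes, called genes are named, up to 6 a comparison. The members and lists were chosen with earlier results of these data known. Shared replicate numbers were checked by correlating deviations from group means. Of 18 pairs, 2 exceeded 0.1 (-0.0461 to 0.189) and 8 correlated best with their own number. In resected spleen with resected blood, numbers 1, 2 and 3 (0.042, 0.131 and 0.189) each correlated best with their own. The main fit did not use the numbers as pairs, and the replicate block was an alternative. Chi-square per degree of freedom between replicates was 23.5 to 712, so no library was a duplicate. Labels give no sequencing batch. Alternatives were RLE factors, DESeq2 1.42.0, 2 other filters, entries as deposited, the replicate block, haemoglobin genes left out, only the groups compared, no fold limit and each library left out.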

Additional observations from a re-analysis of the deposited data

Results flagged for a closer look

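The resection effect on Tnfsf9 differed between the tissues by the interaction test: 6.3 on the log2 scale (SE 0.75, edgeR adjusted p = 0.0227), higher in resected than intact blood in 3 of 3 libraries, with overlapping libraries in spleen. Neutrophil (9 of 9) and red pulp macrophage (5 of 5) markers were called higher in blood after resection too, and their part was not tested. In resected blood most of the red pulp macrophage sum was Hmox1 and Cd163, with Spic and Vcam1 at or below 6.42 CPM.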

How the results depend on the processing

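Of 643 log2 fold changes of named members recomputed under an alternative, 540 kept their direction and side of the threshold, 101 lost the call and 2 turned. Those 2 were uncalled values of Tnfsf9: resection in spleen without resected replicate 3 (-0.16, in a range of -0.16 to 0.90 without 1 library) and intact blood against spleen without intact spleen replicate 3 (0.35, in a range of -0.54 to 0.35). The number of members called in blood after resection was 13 and fell to 7 with only the groups compared; without 1 library it was 6 to 14. In spleen it was 2, and 5 with DESeq2, 0 with no filter on low counts and 4 with at least 10 counts in every library; without 1 library it was 0 to 5. For intact blood against spleen it was 5, and 12 with DESeq2; without 1 library 3 to 10. For resected blood against spleen it was 8, and 14 with DESeq2; without 1 library 4 to 13. For the tissue difference it was 1, and 5 with DESeq2; without 1 library 0 to 2. Calls over all features moved too. In blood they were 2801 of 20135, and 1590 of 17553 with only the groups compared. In spleen they were 278 of 20135, and 1587 of 32964 with DESeq2. There 101 of 32964 were called with no filter and 489 of 13564 with the 10-count minimum. With DESeq2, calls went from 1480 to 2683 for intact blood against spleen. They went from 2646 to 3728 for resected blood against spleen and from 57 to 1167 for the tissue difference. The cause was not tested.

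With the replicate block, the count was 1 for resection in spleen and 5 for resected blood against spleen. It was 0 for the tissue difference, where Tnfsf9 had 6.30 (adjusted p = 0.0544). For resection in blood it was 11 and for intact blood against spleen 6. Of all 20135 features, 150, 2259, 1, 2168 and 1162 were called in the same order of comparisons. Whether the shared numbers pair resected spleen with resected blood was not settled. Leaving out haemoglobin genes moved the median of all features from -0.02 to 0.10 in intact and from -0.14 to -0.02 in resected blood against spleen. Depth limits Tnfsf15 and Tnfrsf17 (0 to 3 counts a library in a group), Tnfsf18 (1 to 8 in blood) and Tnfrsf11b (2 to 13).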
